A study of Mus musculus with 4 samples.

Results

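The monocyte chemokine locus examined here is the interval chr11:81780000-82000000 of the mouse mm9 build, which holds Ccl2, Ccl7, Ccl11 and Ccl12 and a stretch upstream of them. It was chosen by measured values of these libraries, namely the length covered by H4 acetylation peaks, which was much greater in lipopolysaccharide (LPS)-treated than in untreated macrophages. All peaks of the 4 deposited lists that overlapped this interval were taken, which gave 144 of 175801 peaks: 36 of 45589 in LPS-treated HDAC3 KO, 29 of 41956 in untreated HDAC3 KO, 49 of 39550 in LPS-treated wt and 30 of 48706 in untreated wt. The values that chose the locus, and every comparison of LPS-treated with untreated libraries, are given as a description with no test.

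The libraries came from chromatin immunoprecipitation and sequencing with an antibody to acetylated histone H4, in primary bone marrow-derived macrophages of C57BL/6 mice on day 7 of differentiation. The 4 groups were HDAC3 -/- cells (HDAC3 KO) treated with LPS at 100 ng/ml for 4 h, untreated HDAC3 -/- cells, HDAC3 +/- cells treated in the same way, and untreated HDAC3 +/- cells. The submitters call HDAC3 +/- cells wild type (wt), so the cells that serve as wt carry only a single intact HDAC3 allele. How the allele was deleted, and whether marrow of several mice was pooled, is not given in the sources used here. Each group had 1 library, so no difference below can be set against a spread between replicates, and read depth is unknown. The label of macrophage was not checked against marker genes, because the gene tables used here are on another genome build.

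Nucleosomes at promoters and enhancers in use carry acetyl groups on histone H4, and HDAC3 is an enzyme of corepressor complexes that removes acetyl groups from histones. LPS, which comes from the envelope of Gram-negative bacteria, is sensed by Toll-like receptor 4 and switches on inflammatory genes in macrophages. The CC chemokines of this locus are small secreted proteins that attract leukocytes. Ccl2, Ccl7 and Ccl12 are ligands of the receptor CCR2, through which inflammatory monocytes leave the marrow and enter tissue, and Ccl11 (eotaxin) is a ligand of CCR3 on eosinophils. Ccl2 is among the chemokines that macrophages release in large amounts after LPS.

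In RefSeq's gene table, on the GRCm38 build, these genes follow each other in the order Ccl2, Ccl7, Ccl11 and Ccl12, with Ccl8 and Ccl1 next among protein-coding genes. Coordinates were not converted between builds, so no peak is assigned below to a single gene or promoter, and positions are those of the peak files. For the same reason, whether Ccl8 and Ccl1 also lie within the interval was not determined. Of the 4 genes, Ccl12 had an entry in the RefSeq promoter table. Its 250 bases before the transcription start, chr11:82101595-82101844 of GRCm38.p6 on the plus strand, are shown as the regulatory sequence of a gene of the locus, with the match to a motif searched in capitals.
Ccl12: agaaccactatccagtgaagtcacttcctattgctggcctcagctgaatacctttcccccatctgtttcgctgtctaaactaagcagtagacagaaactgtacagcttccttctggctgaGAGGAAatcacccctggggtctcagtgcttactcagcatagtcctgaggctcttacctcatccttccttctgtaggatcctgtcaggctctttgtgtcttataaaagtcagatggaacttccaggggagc

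The capitals mark GAGGAA, letters of the motif of PU.1, a transcription factor that macrophages need to develop. This match was on the plus strand, with its first base at -130 from the start, and it was the 1 match found. The others searched on both strands were the kappaB consensus, the AP-1 motif TGANTCA, the interferon-stimulated response element and the C/EBP motif TTNNGNAA, and none of these letter patterns is in this window. Over the 32851 promoters of the table, GAGGAA was found in 23.3%, the kappaB consensus in 7.25%, TGANTCA in 6.75%, the interferon-stimulated response element in 2.98% and TTNNGNAA in 36.8%. A match is a description of letters and not a site of binding.

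With LPS, peaks covered 77.4 kb of the locus in HDAC3 KO and 71.5 kb in wt, and without it 24.1 kb in HDAC3 KO and 22.9 kb in wt. In shares of the interval this was 35.2% in LPS-treated against 10.97% in untreated HDAC3 KO, beside 32.5% in LPS-treated against 10.4% in untreated wt. Covered length was 53.3 kb greater in LPS-treated than in untreated HDAC3 KO, a ratio of 3.21, and 48.6 kb greater in LPS-treated than in untreated wt, a ratio of 3.13. Over the whole lists the same ratios were 1.38 in HDAC3 KO and 1.06 in wt. As deposited, both LPS-treated libraries lay far apart from both untreated libraries, and the genotypes lay close together within each treatment. A list is made from a population of cells, so more acetylated cells and more acetylation per cell cannot be told apart.

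**Figure D1:**
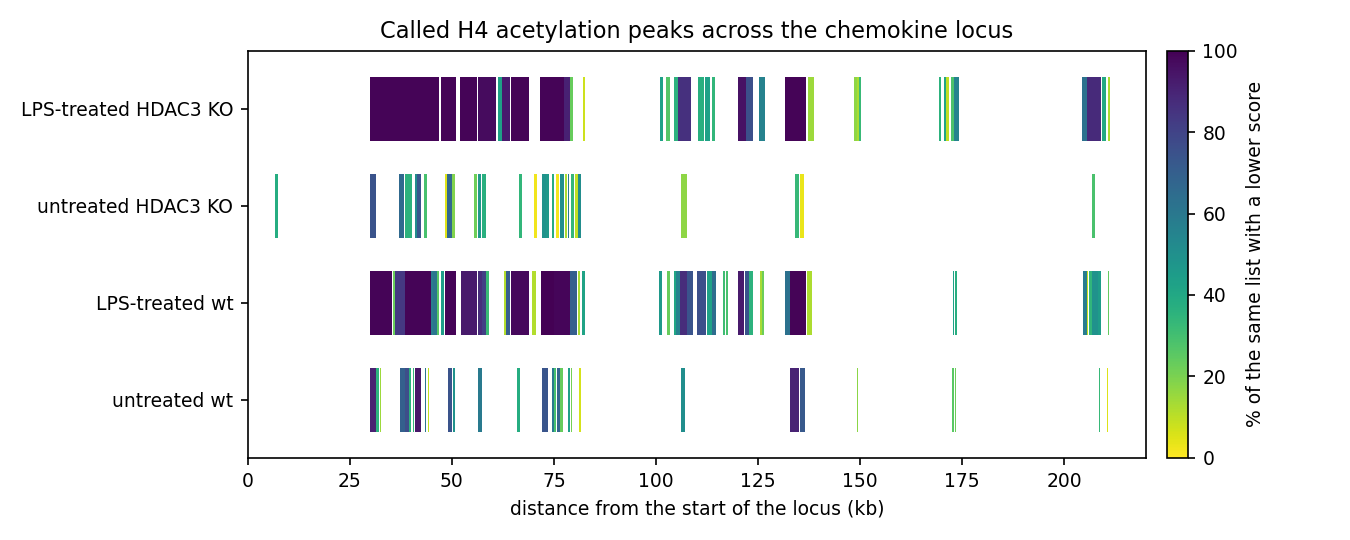
Peaks of the 4 libraries along the locus, with the distance from its start in kb on the x axis, 1 row per library and each peak drawn at its true width and coloured by the percent of its own list that had a lower score. The 36 peaks of LPS-treated HDAC3 KO and the 49 of LPS-treated wt include long runs where the 29 of untreated HDAC3 KO and the 30 of untreated wt are short and scattered.

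The locus was isolated among the called peaks. No library had a peak in the interval of the same length directly before it or in the one directly after it. The nearest peak before the locus was 352 kb away in LPS-treated wt and 1034 kb away in the other libraries, and the nearest after it was 482 kb away in untreated wt and 560 kb away in the rest. At the edges of the interval, the first peak inside began 29.9 kb from the start in LPS-treated HDAC3 KO, 6.67 kb in untreated HDAC3 KO, 29.8 kb in LPS-treated wt and 29.9 kb in untreated wt. The last peak inside ended 8.66 kb before the end in LPS-treated HDAC3 KO, 12.4 kb in untreated HDAC3 KO, 8.94 kb in LPS-treated wt and 9.25 kb in untreated wt, so the edges cut no peak.

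Peaks within the locus fell into 6 blocks, defined after seeing the data as runs of peaks of any library with gaps of at most 6 kb. Block 2, chr11:81809808-81862676, was the longest at 52.9 kb. Peaks covered 85.9% of it in LPS-treated against 36.4% in untreated HDAC3 KO, beside 83.8% in LPS-treated against 31.7% in untreated wt. It held 12 peaks in LPS-treated against 24 in untreated HDAC3 KO, beside 22 in LPS-treated against 22 in untreated wt. The block was thus a near-continuous acetylated stretch with LPS in both genotypes and a row of separate short peaks without it. Of the LPS difference over the whole locus, block 2 held 49.0% in HDAC3 KO and 56.6% in wt.

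Block 3, chr11:81880840-81918663, spanned 37.8 kb and was covered over a smaller share without LPS than block 2. It still held the widest locus peak of untreated wt, at 2266 bp. Peaks covered 55.0% of it in LPS-treated against 8.97% in untreated HDAC3 KO, beside 58.4% in LPS-treated against 11.4% in untreated wt. Only 3 peaks were listed there in each untreated library, against 12 in LPS-treated HDAC3 KO and 19 in LPS-treated wt. The ratio of covered length, LPS-treated over untreated, was 6.13 in HDAC3 KO and 5.13 in wt, greater as deposited than in block 2, where it was 2.36 in HDAC3 KO and 2.64 in wt. Among peaks at or above the median score of their list this order turned in wt, at 3.46 in block 3 and 3.64 in block 2, and in HDAC3 KO block 3 then had no untreated peak. Block 6, chr11:81984423-81991339, had a similar form on a smaller scale, with 5.99 kb covered in LPS-treated against 0.844 kb in untreated HDAC3 KO, and 4.44 kb in LPS-treated against 0.741 kb in untreated wt. Block 1, chr11:81786666-81787304, was a single peak of 639 bp in untreated HDAC3 KO, with a score of 92.0 that 38.2% of the list lay below.

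**Figure D2:**
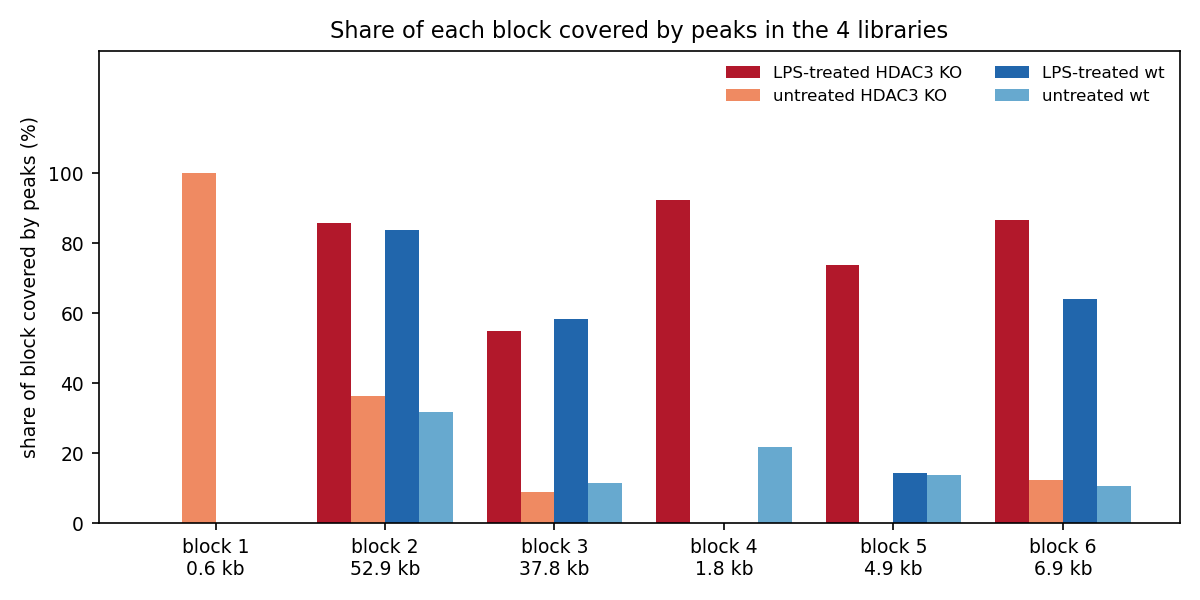
Share of each of the 6 blocks covered by peaks, in percent, with 1 bar per library and the block's length under its number. Blocks 2, 3 and 6 had more coverage with LPS in both genotypes, whereas block 5 reached 73.9% in LPS-treated HDAC3 KO and 14.2% in LPS-treated wt.

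The widest acetylated region, made by merging peaks of the 4 lists that share at least 1 bp, opened block 2 at chr11:81809808-81826793. It was 16986 bp wide, the 6th widest of the 62522 merged regions of the genome. The locus was chosen for great covered length with LPS, so this rank describes it and carries no weight of its own. The score is the authors' own value per peak on a scale they do not state, so a peak is placed here by the percent of its own list that scored lower, and such places in different lists show no change. In LPS-treated HDAC3 KO the region was called as 2 peaks that covered 16.9 kb, both at a score of 3100, a value at which 370 peaks of that list were tied and below which 99.1% of it lay. In untreated HDAC3 KO it held 6 peaks over 6.45 kb, the highest of them above 74.2% of that list. In LPS-treated wt it held 7 peaks over 16.6 kb, the highest above 99.2% of the list, and in untreated wt 10 peaks over 7.91 kb, the highest above 93.9%.

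Its larger peak in LPS-treated HDAC3 KO, chr11:81809852-81818476, was also the widest of the locus in that list at 8625 bp, and ranked 43rd in width among the 45589 peaks. Only 32.9% of it was covered by peaks of untreated HDAC3 KO. The widest peak of the locus in LPS-treated wt, chr11:81818523-81824834, was 6312 bp wide and spanned 6 peaks of untreated wt, which covered 66.5% of it. In untreated HDAC3 KO the widest was chr11:81818526-81820204 at 1679 bp, and in untreated wt chr11:81912849-81915114 at 2266 bp. Widths of at least 4000 bp were found in 7 locus peaks of LPS-treated HDAC3 KO and 5 of LPS-treated wt, and in no locus peak of either untreated library. Over the whole lists such widths made up 1.59% of the peaks of LPS-treated HDAC3 KO, 0.379% of untreated HDAC3 KO, 0.842% of LPS-treated wt and 0.0780% of untreated wt, so they were rarer in the untreated lists over the genome too. Widths of locus peaks in the LPS-treated lists are not free of the choice of the locus.

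Further along block 2, the highest peak of the region chr11:81827203-81831091 lay above 99.1% of the list in LPS-treated HDAC3 KO, 66.6% in untreated HDAC3 KO, 99.2% in LPS-treated wt and 74.3% in untreated wt. Next to it, chr11:81831906-81836233 was covered over 4.24 kb in LPS-treated against 0.870 kb in untreated HDAC3 KO, and over 4.10 kb in LPS-treated wt, with no peak in untreated wt. Of the 10 widest regions it was the 1 whose untreated libraries differed in calls, and its untreated HDAC3 KO peak lay above 22.1% of that list. The region chr11:81836356-81840780 was covered over 4.43 kb in LPS-treated against 1.61 kb in untreated HDAC3 KO, and over 2.73 kb in LPS-treated against 0.911 kb in untreated wt. Each of these regions was covered over more length with LPS than without it in both genotypes.

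Another region of block 2 with little cover before LPS was chr11:81844355-81848987. Peaks covered 4.53 kb of it in LPS-treated against 0.668 kb in untreated HDAC3 KO, and 4.53 kb in LPS-treated against 0.662 kb in untreated wt. Its highest peak lay above 99.1% of the list in LPS-treated HDAC3 KO, 34.2% in untreated HDAC3 KO, 97.8% in LPS-treated wt and 38.3% in untreated wt. The 2nd widest region, chr11:81851664-81858953, was already marked without LPS: it was covered over 7.24 kb in LPS-treated against 4.60 kb in untreated HDAC3 KO, and over 7.10 kb in LPS-treated against 4.80 kb in untreated wt. It held the highest-scored locus peak of LPS-treated wt, chr11:81851711-81854943, whose score of 3142 ranked 22nd among 39550 peaks. In that list 288 peaks were tied at a score of 3100, 3 of them in the locus. Length added with LPS therefore differed between neighbours of the same block in both genotypes.

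In block 3, the region chr11:81911565-81916867 was covered over 5.17 kb in LPS-treated against 1.94 kb in untreated HDAC3 KO, and over 5.21 kb in LPS-treated against 3.49 kb in untreated wt. Its highest peak lay above 99.1% of the list in LPS-treated HDAC3 KO, 32.9% in untreated HDAC3 KO, 99.2% in LPS-treated wt and 90.5% in untreated wt. The region chr11:81884378-81889048 was covered over 4.05 kb in LPS-treated against 1.45 kb in untreated HDAC3 KO, and over 4.48 kb in LPS-treated against 0.815 kb in untreated wt. Between these, a pair of wide regions had no peak in either untreated library. These were chr11:81889944-81893669, with 2.78 kb covered in LPS-treated HDAC3 KO and 3.42 kb in LPS-treated wt, and chr11:81900140-81903833, with 3.63 kb in LPS-treated HDAC3 KO and 3.47 kb in LPS-treated wt. The second of them held, in each LPS-treated list, the highest-scored locus peak without a partner in the untreated library of its genotype, above 95.4% of the list in HDAC3 KO and 93.2% in wt.

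Merging gave 34 regions in the locus. Of these, 9 had a peak in all 4 libraries (26.5%, against 28.5% of all merged regions of the genome), and 10 were called with LPS in both genotypes and never without it (29.4%, against 6.56%). No region of the locus was called in both untreated libraries without a peak in an LPS-treated one, a pattern that only 4.86% of all merged regions of the genome had. Of the regions called in either HDAC3 KO library, 20 of 32 had a peak with LPS only, where the background over the genome was 33.5%, and 2 of 32 without LPS only, where it was 19.3%. Of those called in either wt library, 14 of 27 had a peak with LPS only (background 21.7%) and 1 of 27 without LPS only (background 30.5%). These calls use the contrast by which the locus was chosen, so they describe it and carry no weight of their own. The other 21 regions were 391 to 3495 bp wide.

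The overlap of peaks between treatments uses the same contrast and is likewise a description. In HDAC3 KO, 12 of 36 LPS peaks overlapped an untreated one (33.3%, against 60.1% of the whole list), and 25 of 29 untreated peaks overlapped an LPS peak (86.2%, against 75.0%). In wt, 16 of 49 LPS peaks overlapped an untreated one (32.7%, against 68.3%), and 29 of 30 untreated peaks overlapped an LPS peak (96.7%, against 64.4%). By length, 86.8% of the bases covered in untreated HDAC3 KO were also covered with LPS, and 94.5% in wt, where the shares over the genome were 74.0% in HDAC3 KO and 63.4% in wt. The 4 untreated HDAC3 KO peaks with no LPS partner lay above 2.01% to 51.4% of their list, and the single one of wt above 17.3%.

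**Figure D3:**
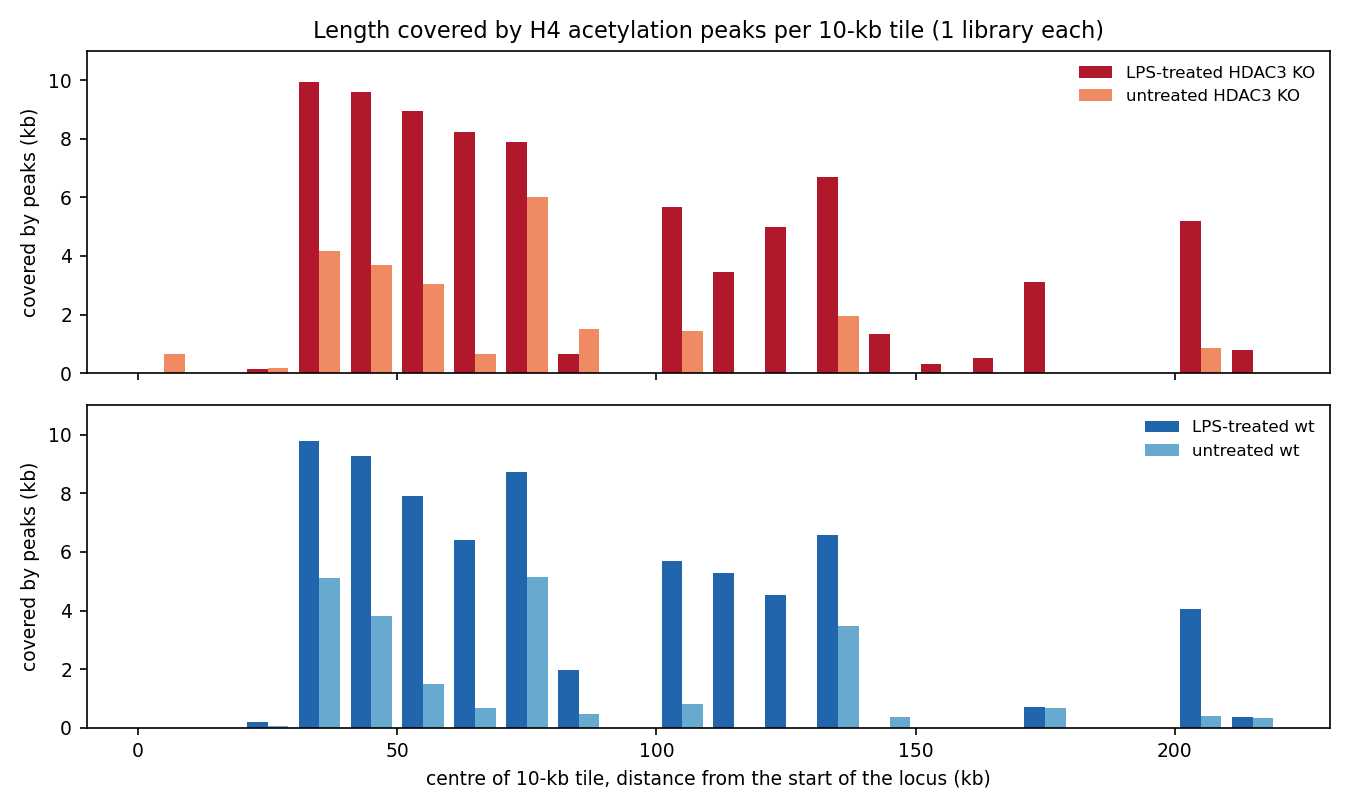
Length covered by peaks in each 10-kb tile of the locus, in kb, for HDAC3 KO (upper panel) and wt (lower panel), with LPS-treated and untreated libraries side by side. The tile at chr11:81840001-81850000 had 8.24 kb in LPS-treated against 0.668 kb in untreated HDAC3 KO, and 6.41 kb in LPS-treated against 0.662 kb in untreated wt.

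Along the locus in 10-kb tiles, 10 of the 18 tiles with a peak in either HDAC3 KO library were covered over at least 2 kb more with LPS, against 8.96% of such tiles over the genome. In wt this held for 10 of 15 tiles, against 4.48% over the genome. The median difference over the locus tiles was 3.28 kb in HDAC3 KO and 3.66 kb in wt, beside 0.260 kb in HDAC3 KO and -0.034 kb in wt over all tiles. No locus tile was covered over at least 2 kb less with LPS in either genotype, where the backgrounds were 1.30% in HDAC3 KO and 1.83% in wt. When the genome was laid out in 220-kb tiles on a grid that held the locus as 1 tile, its LPS difference ranked 3rd of 6543 tiles in HDAC3 KO and 1st in wt. That rank repeats the choice of the locus.

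The comparison between genotypes was not used to choose the locus, but great covered length with LPS was. Overlaps and calls shared between the LPS-treated lists are thus not free of that choice, because wide peaks overlap more readily. They are given as a description. With LPS, HDAC3 KO peaks covered 5.93 kb more than wt peaks, a ratio of 1.08, whereas over the whole lists HDAC3 KO covered 1.35 times the length of wt, and after division by each list's total the difference in the locus turned to -15.0 kb. Of the 17 locus tiles with a peak in either LPS-treated library, 1 was covered over at least 2 kb more in HDAC3 KO (background 6.34%) and none over at least 2 kb less (background 0.549%). After the same division 0 tiles had at least 2 kb more and 4 at least 2 kb less in HDAC3 KO. The division lowers HDAC3 KO against wt throughout the genome, and no background was computed after it. The sign of this genotype difference is thus set by the scaling. Among the 220-kb tiles 88.1% had a smaller difference than the locus as deposited, and the median tile had 0.647 kb.

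**Figure D4:**
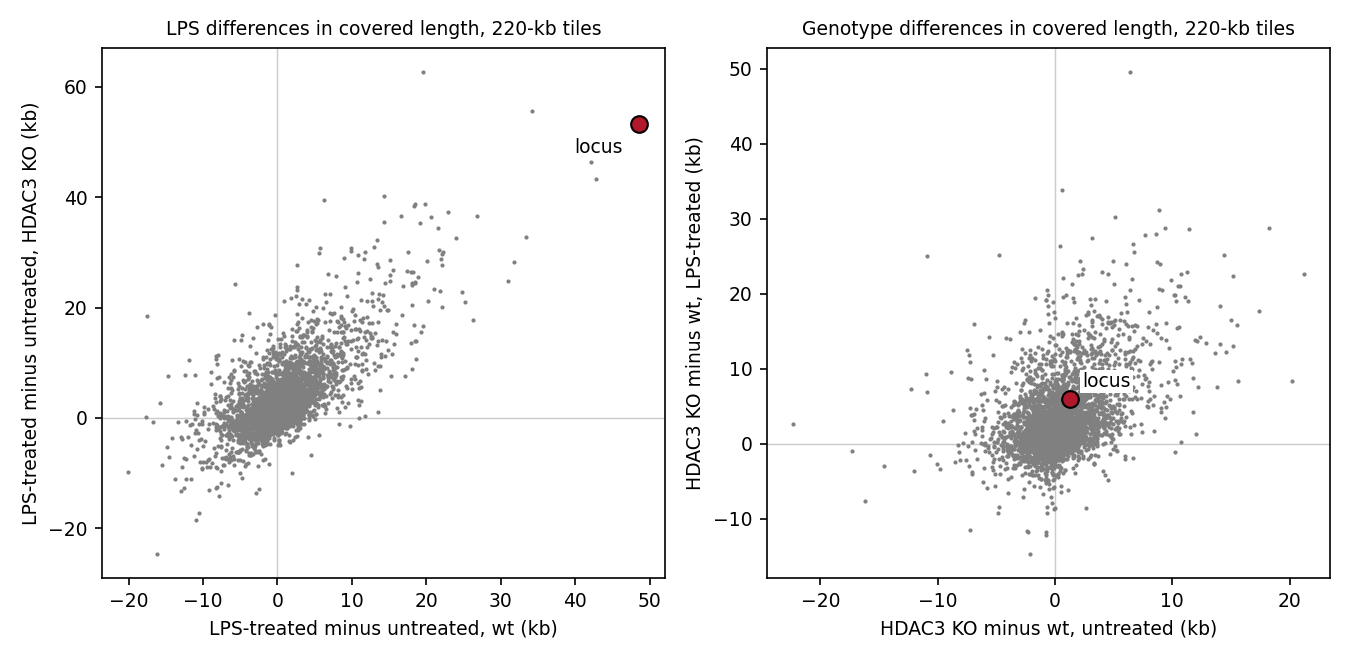
Differences in covered length, in kb, for 6543 tiles of 220 kb, with LPS-treated minus untreated on the left (wt on the x axis, HDAC3 KO on the y axis) and HDAC3 KO minus wt on the right (untreated on the x axis, LPS-treated on the y axis). The locus, drawn as a large point, lies at the far end of the LPS differences with 53.3 kb in HDAC3 KO and 48.6 kb in wt, and within the body of the genotype differences at 5.93 kb with LPS and 1.26 kb untreated.

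Base by base, the LPS-treated libraries shared 64.9 kb, which was 83.8% of the length covered in HDAC3 KO and 90.8% of that covered in wt, beside 60.3% in HDAC3 KO and 81.3% in wt over the genome. A further 12.5 kb was covered in HDAC3 KO alone and 6.58 kb in wt alone. Of the 36 peaks in LPS-treated HDAC3 KO, 28 overlapped a peak of LPS-treated wt, and 8 did not (22.2%, against 35.3% of the whole list). Of the 49 peaks in LPS-treated wt, 45 overlapped a peak of LPS-treated HDAC3 KO, and 4 did not (8.16%, against 19.5%). The 8 peaks of HDAC3 KO alone lay above 9.59% to 42.4% of their list and the 4 of wt alone above 11.4% to 31.2% of theirs, so all 12 scored below the median of their list. HDAC3 KO had fewer but wider calls here: the median locus peak was 1216 bp wide in LPS-treated HDAC3 KO and 917 bp in LPS-treated wt. The whole lists had the same order of widths, with medians of 836 bp in LPS-treated HDAC3 KO and 722 bp in LPS-treated wt. Their order of numbers was the opposite, with 45589 peaks in LPS-treated HDAC3 KO and 39550 in LPS-treated wt. At least 2 wt peaks were spanned by 14 of the 36 HDAC3 KO peaks (38.9%, against 10.5% of the whole list), and at least 2 HDAC3 KO peaks by 4 of the 49 wt peaks (8.16%, against 7.83%).

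**Figure D5:**
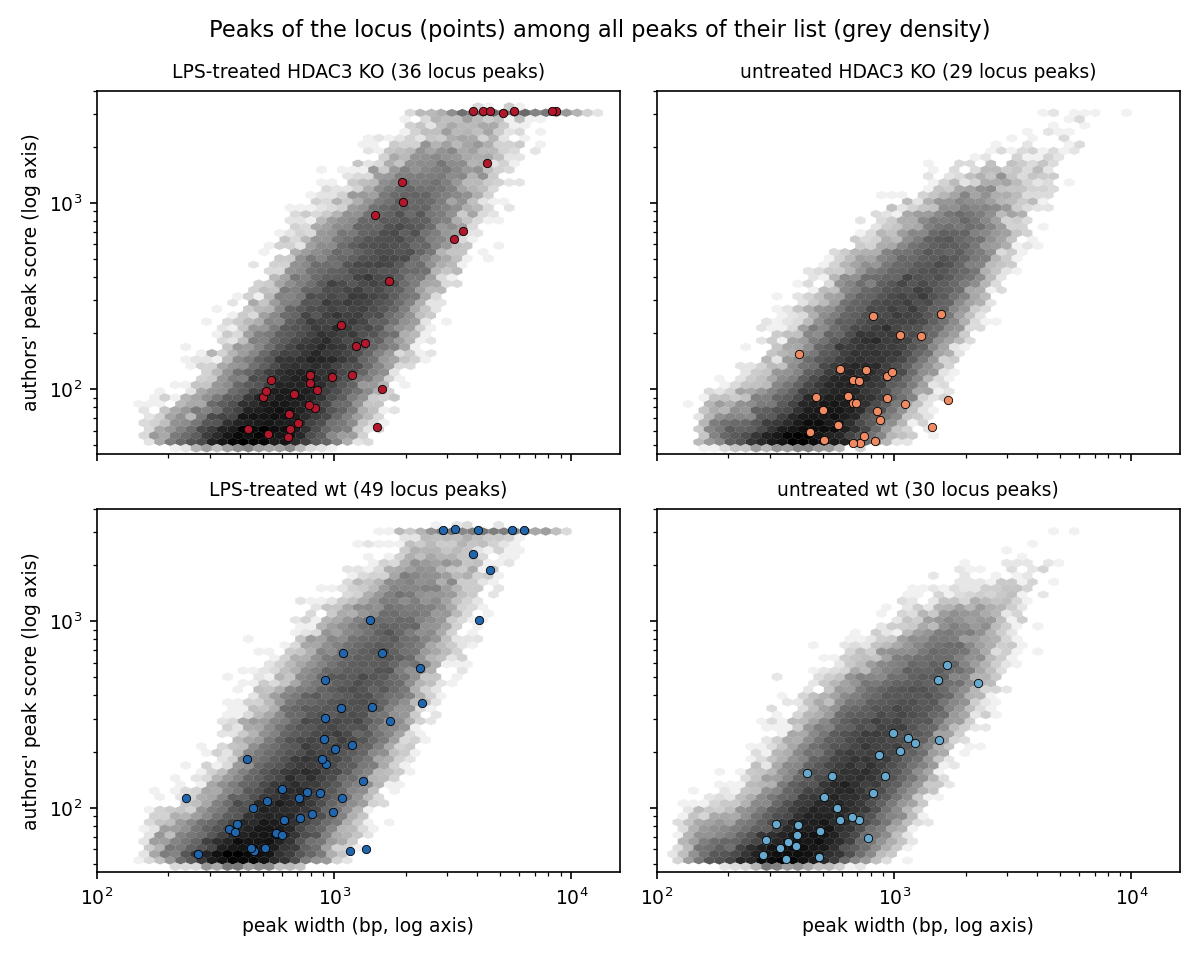
Width in bp (x axis, log) and authors' score (y axis, log) of each locus peak, drawn as points over the grey density of all peaks of the same list, with 1 panel per library. The widest locus peak has 8625 bp in LPS-treated HDAC3 KO, 1679 bp in untreated HDAC3 KO, 6312 bp in LPS-treated wt and 2266 bp in untreated wt, and the score is to be read within a panel.

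Beyond block 3, on the far side of the locus, peaks as deposited covered more length in LPS-treated HDAC3 KO than in LPS-treated wt. In block 5, chr11:81949419-81954305, peaks covered 3.61 kb in LPS-treated HDAC3 KO and 0.694 kb in LPS-treated wt. After division by total covered length these were 2.86 kb in HDAC3 KO and 0.740 kb in wt, and among peaks at or above the median score of their list 1.24 kb in HDAC3 KO and 0 kb in wt. Block 5 had no peak in untreated HDAC3 KO and 0.677 kb in untreated wt. Of its 5 peaks in LPS-treated HDAC3 KO, chr11:81953065-81954305 lay above 55.2% of the list and the other 4 below its median. In block 6 the genotype difference with LPS depended on the setting: 5.99 kb in HDAC3 KO and 4.44 kb in wt as deposited, 4.74 kb in HDAC3 KO and 4.73 kb in wt after the division, and 4.55 kb in HDAC3 KO and 0.887 kb in wt under the median limit. In block 4, chr11:81928526-81930302, LPS-treated HDAC3 KO had 3 peaks over 1.64 kb, the highest above 32.5% of its list, LPS-treated wt had none, and untreated wt had 1 peak of 386 bp that lay above 17.3% of its list. None of these block 4 peaks reached the median score of its list.

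Of the 33 merged regions called in either LPS-treated library, 7 had a peak in HDAC3 KO only (21.2%, background 31.1%) and 3 in wt only (9.09%, background 15.5%). Both shares lay below the background over the genome. Of the 34 merged regions of the locus, 15 differed in calls between the genotypes under a treatment, and no share over the genome was computed for this rule. Of the 15, 4 were at least 1000 bp wide. These were the chr11:81831906-81836233 region described above, chr11:81849496-81850733, called only in untreated HDAC3 KO, above 2.01% of its list, and in LPS-treated wt, above 11.4%, chr11:81928526-81929695, with peaks in LPS-treated HDAC3 KO and untreated wt only, and chr11:81953065-81954305. The last had a peak in every library but untreated HDAC3 KO, covering 1.24 kb in LPS-treated HDAC3 KO, 0.456 kb in LPS-treated wt and 0.288 kb in untreated wt.

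Without LPS, covered length was 1.26 kb greater in HDAC3 KO than in wt, a ratio of 1.05, but among peaks at or above the median score of their list it was lower in HDAC3 KO, at 7.47 kb, than in wt, at 15.0 kb. Of the locus peaks, 8 of 29 in untreated HDAC3 KO and 13 of 30 in untreated wt reached the median score of their list. The highest-scored was chr11:81809828-81811397 in untreated HDAC3 KO, with a score of 254 that 74.2% of the list lay below, and chr11:81820850-81822520 in untreated wt, with a score of 580 that 93.9% lay below. The untreated libraries shared 15.4 kb, which was 63.7% of the length covered in HDAC3 KO and 67.2% of that covered in wt, a smaller share than between the LPS-treated libraries. Over the genome these shares were 67.9% in HDAC3 KO and 69.9% in wt. Of the 16 regions called in either untreated library, 3 had a peak in HDAC3 KO only (18.8%, background 18.3%) and 4 in wt only (25.0%, background 26.7%), which is close to the genome. Of the 14 tiles, 0 differed by at least 2 kb in either direction, where the backgrounds were 1.69% for more and 0.595% for less coverage in HDAC3 KO.

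At the single-base level, 14.8 kb of the locus was covered in all 4 libraries and 37.6 kb with LPS in both genotypes but never without it. Bases covered in LPS-treated HDAC3 KO alone came to 11.8 kb, in LPS-treated wt alone to 4.53 kb, in untreated HDAC3 KO alone to 0.938 kb and in untreated wt alone to 0.361 kb. Shares over the genome were not computed for these patterns. The whole LPS-treated HDAC3 KO list covered 1.35 times the length of the LPS-treated wt list. The length covered only with LPS uses the contrast by which the locus was chosen. Together, peaks of any library covered 85.5 kb of the locus.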

How the data were processed

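Per the file headers, MACS compared each ChIP sample with input to call peaks, and Bowtie and the mm9 build are named in the submitters' processing notes. Versions and settings are not given in the sources used here. The deposited lists hold a start, an end and a score per peak. The score is the authors' value, with a lowest value of 50.0, and it depends on depth and input. Read depth is unknown. Base-pair positions were counted from 1.

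Peaks overlapping the locus were taken as deposited, and covered length, 10-kb tiles, regions merged at 1 bp of overlap and overlaps between lists were computed with Python 3.11.15 and numpy 2.4.6. The code was checked on 5000 simulated regions, and 35 of 35 quantities were recovered. Regions described singly were the 10 widest, the highest-scored and the widest peak of each list, and regions of at least 1000 bp whose calls differed between genotypes. The locus, members, lists and rules were chosen with earlier results of these data known, and blocks after seeing the data. No test was run, since each group had 1 library. Motifs were searched in RefSeq promoters (GRCm38.p6). Alternatives were score limits, joining of peaks, counting of whole peaks, merging rules, a covered share of 50% and division by total covered length. Marker genes and the HDAC3 gene itself were not analysed here for want of an mm9 annotation.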

Additional observations from a re-analysis of the deposited data

Results flagged for a closer look

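Covered length moved in opposite directions with LPS in the genotypes in 1 of the 6 blocks and 3 of the 22 tiles of the locus. No share of such tiles over the genome was computed, and none of these differences was tested. In block 4 the difference, LPS-treated minus untreated, was 1.64 kb in HDAC3 KO and -0.386 kb in wt. In the tile at chr11:81920001-81930000, which overlaps that block, it was 1.34 kb in HDAC3 KO and -0.386 kb in wt. In the tile at chr11:81860001-81870000, the far end of block 2, it was -0.872 kb in HDAC3 KO and 1.49 kb in wt. Peaks of that tile lay above 7.43% of the list in LPS-treated HDAC3 KO and above 9.73% to 51.4% in untreated HDAC3 KO. In wt they lay above 13.1% to 70.2% of the list with LPS and above 6.55% without it. In the tile at chr11:81800001-81810000 the difference was -0.024 kb in HDAC3 KO and 0.131 kb in wt, and no library covered more than 0.193 kb of that tile.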

How the results depend on the processing

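Of the 5 alternatives for covered length, counting whole peaks could change nothing, because the edges of the interval cut no peak. The LPS differences in covered length kept their direction under the others in both genotypes. Of these differences 1 moved by over 1.5 times: division by total covered length gave 34.8 kb in HDAC3 KO. The genotype difference with LPS turned to -15.0 kb under that division. The untreated genotype difference turned to -7.53 kb among peaks at or above the list median and to -9.05 kb among the 20000 highest-scored, and was 2.31 kb with peaks within 500 bp joined and 0.627 kb after division. Counts of merged regions depended on the rule. Regions with a peak in both LPS-treated libraries only (10) numbered 5 with the median limit, 6 with the 20000 highest, 6 with joining, 5 with merging across 500 bp and 16 where a list had to cover 50%. Regions called in all 4 libraries (9) numbered 3, 3 and 1 under the median, 20000 and 50% rules. With LPS, regions in HDAC3 KO only (7) numbered 3, 2, 2 and 2 under the median, 20000, joining and merging rules. Without LPS, regions in HDAC3 KO only (3) numbered 1 and 0 under the median and 20000 rules, and those in wt only (4) numbered 2, 2 and 1 under the 20000, merging and 50% rules. The cause of these shifts was not tested.

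Among settings added after seeing the data, division by total covered length turned the LPS genotype difference in block 2 to -11.3 kb (1.11 kb as deposited) and the wt LPS difference in block 5 to -0.024 kb, and the median limit turned the untreated genotype difference in block 2 to -3.23 kb. Of 20 block differences, 3 more moved by over 1.5 times under the division and 14 under the median limit. Under the division, the LPS difference of block 2 in HDAC3 KO was 14.8 kb (26.1 kb as deposited), and the LPS genotype differences were -7.10 kb in block 3 (-1.29 kb) and 0.0071 kb in block 6 (1.55 kb). Under the median limit, the wt LPS difference was 10.6 kb in block 3 (17.8 kb) and 0.887 kb in block 6 (3.70 kb), the HDAC3 KO one in block 5 was 1.24 kb (3.61 kb), the LPS genotype differences were 4.22 kb in block 2 (1.11 kb), 1.24 kb in block 5 (2.92 kb) and 3.66 kb in block 6 (1.55 kb), the untreated one in block 3 was -4.30 kb (-0.909 kb), and 7 others, among them all 4 of block 4, were 0. No paired analysis was possible because each group had 1 library, and no library could be left out.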
